A study of Rattus norvegicus with 304 samples.

Results

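Ccbl1 and Glud1 encode enzymes of amino acid metabolism and were 2 of the 50 liver transcripts quantified by real-time PCR in rats given the dioxin TCDD. They were chosen by name, from every group in which their fold change was listed, and both were listed in all 36 groups on each of 2 platforms. On the OpenArray, a high-density nanolitre PCR plate, Ccbl1 rose and Glud1 fell with the dose of TCDD in both rat strains. Ccbl1 reached 2.95-fold of its corn oil level in Han/Wistar rats and 3.91-fold in Long-Evans rats, as geometric means over the 19 h groups at 100 µg/kg and above. Glud1 stood at 0.505-fold and 0.395-fold over the same groups. On the second platform, the 7900HT, no dose trend of either gene passed as deposited. The same means there were 1.17-fold and 0.829-fold for Ccbl1, and 0.218-fold and 0.189-fold for Glud1. Glud1 on that platform was already low at the 3 lowest doses, with mean log2 values of -1.34 for Han/Wistar and -1.13 for Long-Evans. The high-dose mean minus that low-dose mean was -0.86 and -1.27. Each high-dose mean covers 3 doses for Han/Wistar but 2 for Long-Evans. Those 2 put Ccbl1 on the 7900HT at 0.49 and -1.03 in the authors' deposited table.

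Ccbl1 is the older name of Kyat1, a pyridoxal phosphate enzyme that transaminates glutamine and kynurenine. With kynurenine as substrate it yields kynurenic acid, and it also cleaves cysteine conjugates of halogenated compounds, the activity behind its older name of cysteine conjugate beta-lyase. Glud1 is mitochondrial glutamate dehydrogenase, which interconverts glutamate with 2-oxoglutarate and ammonia and is abundant in liver. TCDD acts through the aryl hydrocarbon receptor (AHR), which pairs with ARNT and binds DNA at elements built on the core GCGTG. Kynurenine and kynurenic acid are themselves known AHR ligands.

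The animals were male rats aged 10-12 weeks, of the Long-Evans strain, which is sensitive to TCDD, or the Han/Wistar strain, which is resistant. Each received a single gavage of TCDD or of the corn oil vehicle. In the dose arm, livers were taken 19 h after 0.001, 0.01, 0.1, 1, 10, 100 or 1000 µg/kg, with a further group at 3000 µg/kg in Han/Wistar and at 50 µg/kg in Long-Evans. In the time arm, 100 µg/kg was followed for 1.5, 3, 6, 10, 19, 96, 240 and 384 h in Han/Wistar and for 3, 6, 10, 19, 96 and 240 h in Long-Evans. Corn oil groups were taken at 1.5, 19, 96, 240 and 384 h in Han/Wistar and at 19, 96 and 240 h in Long-Evans. The 100 µg/kg group at 19 h belongs to both arms.

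Groups held 3 to 7 animals, with 150 samples on the OpenArray and 154 on the 7900HT, a conventional plate-based instrument. Of the sample titles 150 occur on both platforms, so the platforms do not give independent animals. The values analysed are those of the authors' deposited table for each platform, which lists 1 log2 fold change for each gene in each group. The reference is the strain's own 19 h corn oil group, which is 0 by construction. There is no error between animals behind a group value, and the spread between corn oil groups (SD) is given in its place. That SD was 0.29 for Ccbl1 and 0.15 for Glud1 in Han/Wistar on the OpenArray, and 0.23 and 0.16 in Long-Evans. On the 7900HT it was 0.61 for Ccbl1 and 0.97 for Glud1 in Han/Wistar, then 0.11 and 0.45 in the other strain. None of 13 marker genes of hepatocytes and other liver cells was among the targets, so the labelled tissue could not be checked by markers. In whole liver, less RNA per cell and fewer cells of a type cannot be told apart.

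The DNA before the start of each gene is shown because the AHR core may or may not occur there and the transcripts moved in opposite directions. Both windows are the 250 bases before the RefSeq start site in build GRCr8, written 5′ to 3′ on the gene's own strand, with the core in capitals as GCGTG or, where it lies on the other strand, as CACGC. The Ccbl1 (Kyat1) window is chr3:33871552-33871801 on the minus strand, and the Glud1 window is chr16:9646319-9646568 on the plus strand.
Ccbl1: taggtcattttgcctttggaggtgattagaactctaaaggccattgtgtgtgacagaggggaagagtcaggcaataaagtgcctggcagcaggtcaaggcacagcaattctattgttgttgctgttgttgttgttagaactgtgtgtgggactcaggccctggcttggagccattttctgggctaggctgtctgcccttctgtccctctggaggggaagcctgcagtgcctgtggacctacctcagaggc
Glud1: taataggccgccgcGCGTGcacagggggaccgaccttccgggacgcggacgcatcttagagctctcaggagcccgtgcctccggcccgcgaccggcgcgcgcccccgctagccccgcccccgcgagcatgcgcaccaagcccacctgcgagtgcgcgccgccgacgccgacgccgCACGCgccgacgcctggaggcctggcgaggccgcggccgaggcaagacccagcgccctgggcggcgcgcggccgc

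The Ccbl1 window holds 0 cores, 52.4% G and C, and 0 CG pairs. The Glud1 window holds 2 cores, with 78.8% G and C and 45 CG pairs. As printed, the leftmost base is at -236 for the core on the printed strand and at -75 for that on the other. Among 33469 rat promoter windows of the same length, 25.9% hold at least 1 core on either strand and 8.12% hold at least 2. Among 45 panel targets with a window, 42.2% hold 1 or more and 22.2% hold at least 2. Of all the rat windows, 1.51% have as much G and C as the Glud1 window or more, and the median is 51.2%. The start site used for Ccbl1 lies 19602 bases inside the end of its gene model (33857407 to 33891153), so the gene model extends upstream of this window. These matches describe letters in a window and not binding.

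The first comparison asked how each transcript changed with dose at 19 h. In Han/Wistar rats on the OpenArray, the authors' deposited table put Ccbl1 at -0.07, -0.23 and -0.13 at 0.001, 0.01 and 0.1 µg/kg, then at 0.46, 1.15, 1.56, 1.62 and 1.50 at 1, 10, 100, 1000 and 3000 µg/kg. The 3 lowest doses lay within the range of the corn oil groups, and every dose from 1 µg/kg lay above it. Those corn oil groups stood at -0.64, 0, -0.46, -0.46 and -0.76 at 1.5, 19, 96, 240 and 384 h in the authors' deposited table. In the order of the levels, neighbours among the 3 lowest doses differed by less than the corn oil SD, and so did neighbours among the 3 highest.

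Long-Evans rats on the OpenArray had Ccbl1 values of 0.22, -0.20, 0.22 and 0.41 at 0.001, 0.01, 0.1 and 1 µg/kg, then 1.21, 1.60, 2.15 and 1.78 at 10, 50, 100 and 1000 µg/kg, according to the authors' deposited table. The same table, the authors' deposited table for the OpenArray, gave corn oil as 0, -0.08 and -0.43 at 19, 96 and 240 h. All doses from 0.1 µg/kg lay above those 3 corn oil groups, as did 0.001 µg/kg, while 0.01 µg/kg lay among them. The highest value was at 100 µg/kg, above 1000 µg/kg by more than the corn oil SD.

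Glud1, the glutamate dehydrogenase transcript, ran the other way. Its Han/Wistar values on the OpenArray were -0.17, -0.20, -0.22, -0.63, -0.94, -0.79, -1.11 and -1.06 from 0.001 to 3000 µg/kg in the authors' deposited table. The corn oil groups of that strain stood at -0.36, 0, 0.01, -0.05 and -0.04 in the authors' deposited table, from 1.5 to 384 h. All 5 doses from 1 µg/kg lay below the corn oil range, and the 3 lower doses lay inside it. The low end of that range was the 1.5 h corn oil group alone, and the 3 lower doses lay below every other corn oil group.

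In Long-Evans rats, the OpenArray values of Glud1 in the authors' deposited table were -0.31, -0.58, -0.69 and -0.85 at 0.001, 0.01, 0.1 and 1 µg/kg, and -1.10, -1.43, -1.12 and -1.56 at 10, 50, 100 and 1000 µg/kg. All 8 doses lay below the corn oil groups, which the authors' deposited table gave as 0, 0.28 and 0.28 at 19, 96 and 240 h. With only 3 corn oil groups that range is narrow. Values at neighbouring places in the order, such as 100 and 10 µg/kg, or 1000 and 50 µg/kg, differed by less than the corn oil SD.

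**Figure D1:**
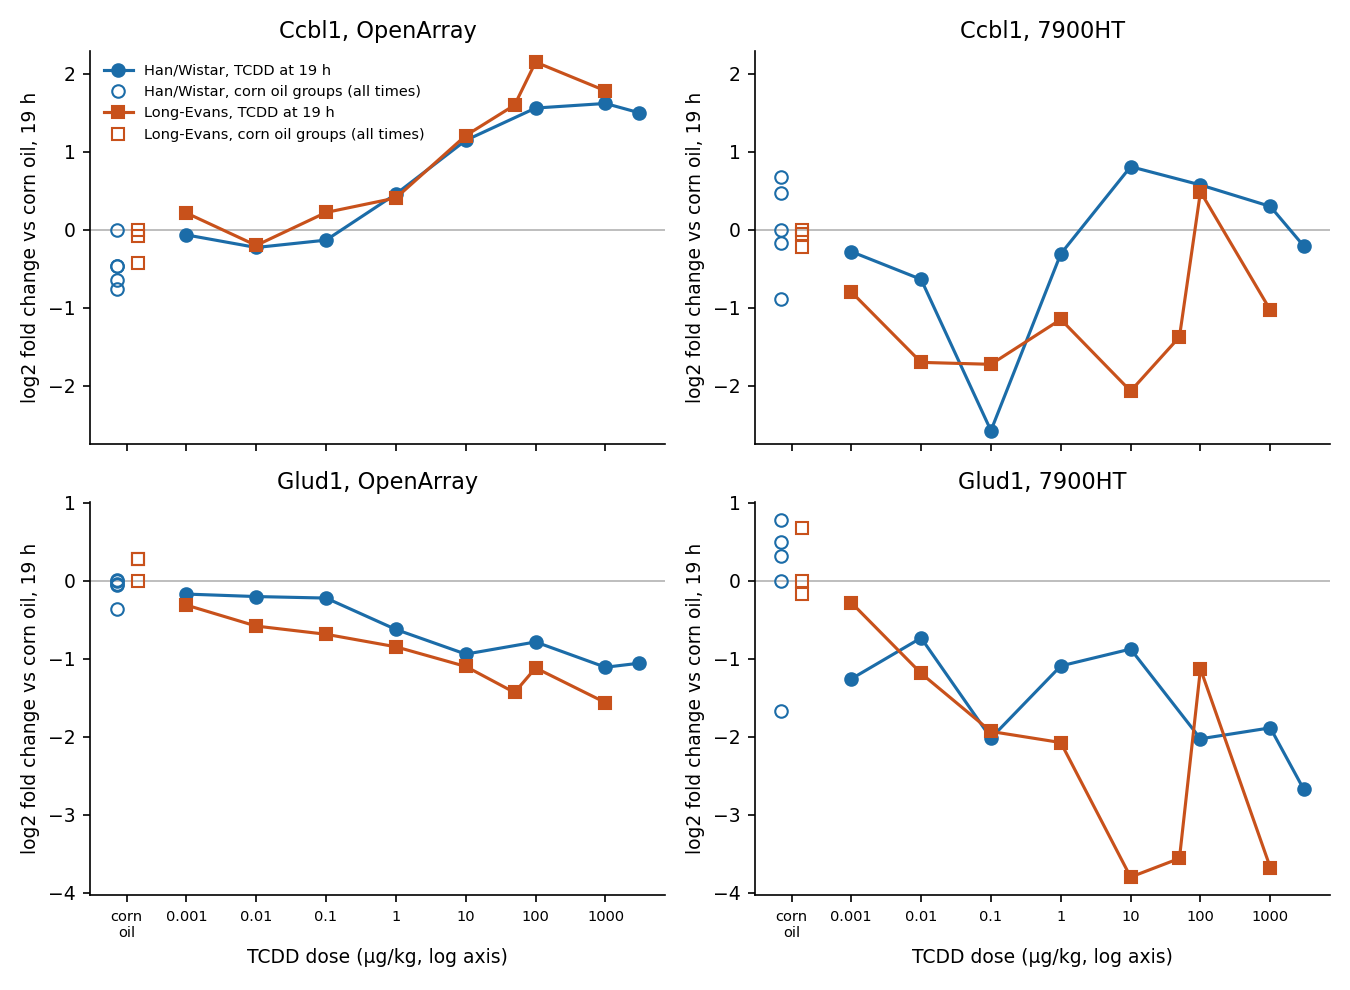
Deposited log2 fold change of Ccbl1 (top) and Glud1 (bottom) against TCDD dose on a log axis at 19 h, on the OpenArray (left) and the 7900HT (right), with filled symbols for TCDD groups and open symbols at the left for the corn oil groups of all times. On the OpenArray, Ccbl1 climbs from 1 µg/kg in both strains and Glud1 declines to between -0.79 and -1.56 from 10 µg/kg on, while the 7900HT values scatter more and dip to -3.80 for Glud1 in Long-Evans at 10 µg/kg.

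Each trend over the 8 dose groups was measured by Spearman's rho between log10 dose and the log2 value, with the two-sided exact permutation p from all 40320 orders and Benjamini-Hochberg adjustment over the 49 OpenArray targets. The rho of Ccbl1 was 0.86 in Han/Wistar (Pearson's r 0.94, exact p = 0.0107, adjusted exact p = 0.0219) and of 0.95 in Long-Evans (r 0.91, exact p = 0.00114, adjusted exact p = 0.00684). Among the Han/Wistar trends 59.2% of targets were called, 38.8% as rising, and among the Long-Evans trends 79.6% were called, 53.1% as rising, so a rise like that of Ccbl1 was common on this panel. Without the 2 doses farthest from the median, the rho of Ccbl1 was 1 in Han/Wistar and 0.94 in Long-Evans.

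The Han/Wistar call for Ccbl1 was lost in the exact permutation test without any 1 of 4 doses: its adjusted p was 0.0530 without 0.01, 0.0556 without 0.1, 0.0871 without 1 and 0.0784 without 10 µg/kg. In Long-Evans it held without each dose in turn, but centring each group on the mean of all targets gave a rho of 0.76 and an adjusted exact p of 0.0546.

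The rho of Glud1 was -0.95 in Han/Wistar (r -0.95, exact p = 0.00114, adjusted exact p = 0.00799) and of -0.98 in Long-Evans (r -0.97, exact p = 0.000397, adjusted exact p = 0.00684). Targets called as falling made up 20.4% of the panel in Han/Wistar and 26.5% in Long-Evans. Glud1 had the lowest rho of the 49 targets in both strains, while the median target had 0.64 in the first strain and 0.79 in the second. The call held without each dose in turn, and rho was -0.94 in both strains without the 2 doses farthest from the median.

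The time arm asked when these levels changed after 100 µg/kg. In Han/Wistar rats on the OpenArray, Ccbl1 stood at -0.46, 0.95, 1.67, 1.65, 1.56, 1.96, 1.71 and 1.88 at 1.5, 3, 6, 10, 19, 96, 240 and 384 h in the authors' deposited table. In Long-Evans rats the authors' deposited table gave 1.01, 1.86, 1.87, 2.15, 3.00 and 2.31 at 3, 6, 10, 19, 96 and 240 h. Ccbl1 was above every corn oil group from 3 h in both strains, and the level at 1.5 h, measured in Han/Wistar only, lay within the corn oil range. No corn oil group was taken at 3, 6 or 10 h, so for both genes those times are read against corn oil of other times. The highest value was at 96 h in both strains, but in Han/Wistar it differed from that at 384 h by less than the corn oil SD.

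In Han/Wistar, Glud1 lay below its corn oil range only from 19 h. Its values there were 0.14, -0.25, -0.02 and -0.24 at 1.5, 3, 6 and 10 h in the authors' deposited table, followed by -0.79, -0.77, -1.13 and -1.22 at 19, 96, 240 and 384 h. All 4 later times lay below the corn oil range, 1.5 h lay above it, and 3, 6 and 10 h lay inside it. The low end of that range was the 1.5 h corn oil group alone, at -0.36 in the authors' deposited table. At 3 and 10 h Glud1 lay below every other corn oil group, the lowest of which was at -0.05. Long-Evans had no corn oil group at 1.5 h, so the onset is not read alike in the strains. The Long-Evans values in the authors' deposited table were -0.21, -0.28, -0.80, -1.12, -1.62 and -1.67 at 3, 6, 10, 19, 96 and 240 h, each below the 3 corn oil groups.

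**Figure D2:**
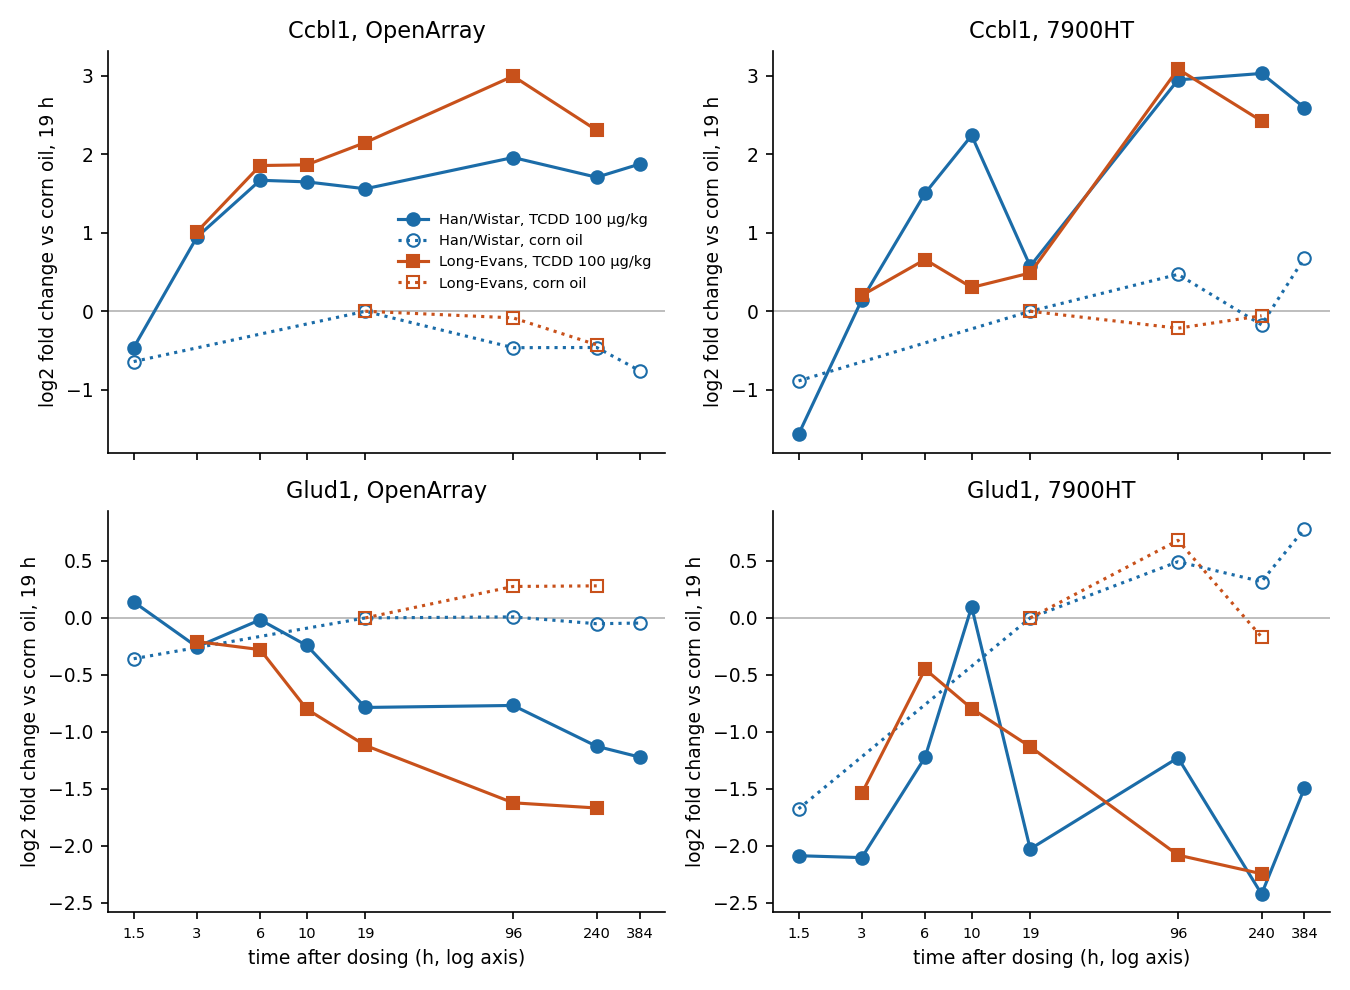
Deposited log2 fold change of Ccbl1 (top) and Glud1 (bottom) against time after dosing on a log axis, on the OpenArray (left) and the 7900HT (right), with filled symbols for 100 µg/kg TCDD and open symbols on dotted lines for corn oil. On the OpenArray, Ccbl1 is at 0.95 and 1.01 by 3 h, whereas Glud1 in Han/Wistar lies below the corn oil range only from 19 h, with -0.79, after a value of 0.14 above that range at 1.5 h. The low end of that range is the 1.5 h corn oil group alone, at -0.36.

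Set against corn oil of the same time, the OpenArray difference for Ccbl1 in Han/Wistar was 0.18, 1.56, 2.42, 2.17 and 2.63 from 1.5 to 384 h, the last being 6.20-fold. In Long-Evans it was 2.15, 3.08 and 2.74 from 19 to 240 h, with 8.47-fold at 96 h. Except at 19 h these differences exceed the deposited values, since the other corn oil groups lay below 0 for Ccbl1. On this scale the highest Han/Wistar difference for Ccbl1 was at 384 h and the highest Long-Evans one at 96 h. For Glud1 the difference in Han/Wistar was 0.50, -0.79, -0.78, -1.08 and -1.18 at the same 5 times, and the last left 44.3% of the corn oil level. In Long-Evans it was -1.12, -1.90 and -1.95, which left 26.8% at 96 h and 25.9% at 240 h.

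The time course was tested by the mean of the 100 µg/kg groups minus that of the corn oil groups, with a two-sided exact permutation test over all 1287 splits in Han/Wistar and all 84 in Long-Evans. This test pooled all times and did not pair TCDD and corn oil groups of the same time. Ccbl1 rose by 1.83 in Han/Wistar (adjusted exact p = 0.0104) and by 2.20 in Long-Evans (adjusted exact p = 0.0365). Of all targets 55.1% were called in the first strain, 53.1% as higher, and 32.7% in the second, 30.6% as higher. The smallest unadjusted p that 84 splits allow is 0.0119, and Ccbl1 in Long-Evans was at that limit. Its Long-Evans call was lost in the exact test without any 1 of 7 groups (TCDD at 6, 10, 19 or 96 h, or any of the 3 corn oil groups), where fewer splits remain. The difference then lay between 2.01 and 2.29.

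Over the whole time course, Glud1 on the OpenArray differed by -0.45 in Han/Wistar (adjusted exact p = 0.143) and by -1.13 in Long-Evans (adjusted exact p = 0.0700), and neither passed. Of all targets 2.04% were called as lower in each strain. The mean in Han/Wistar includes the first 4 times, at which Glud1 was not below the corn oil range. The median of all targets was itself 0.58 higher under TCDD in Han/Wistar and 0.63 higher in Long-Evans. Relative to the median target of each group, Glud1 differed by -0.89 in Han/Wistar (adjusted exact p = 0.0225) and by -1.69 in Long-Evans (adjusted exact p = 0.0673). Relative to the group mean it differed by -1.47 (adjusted exact p = 0.00761) and -2.14 (adjusted exact p = 0.0402). Whether the shift of the panel had a part in the result was not tested.

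**Figure D3:**
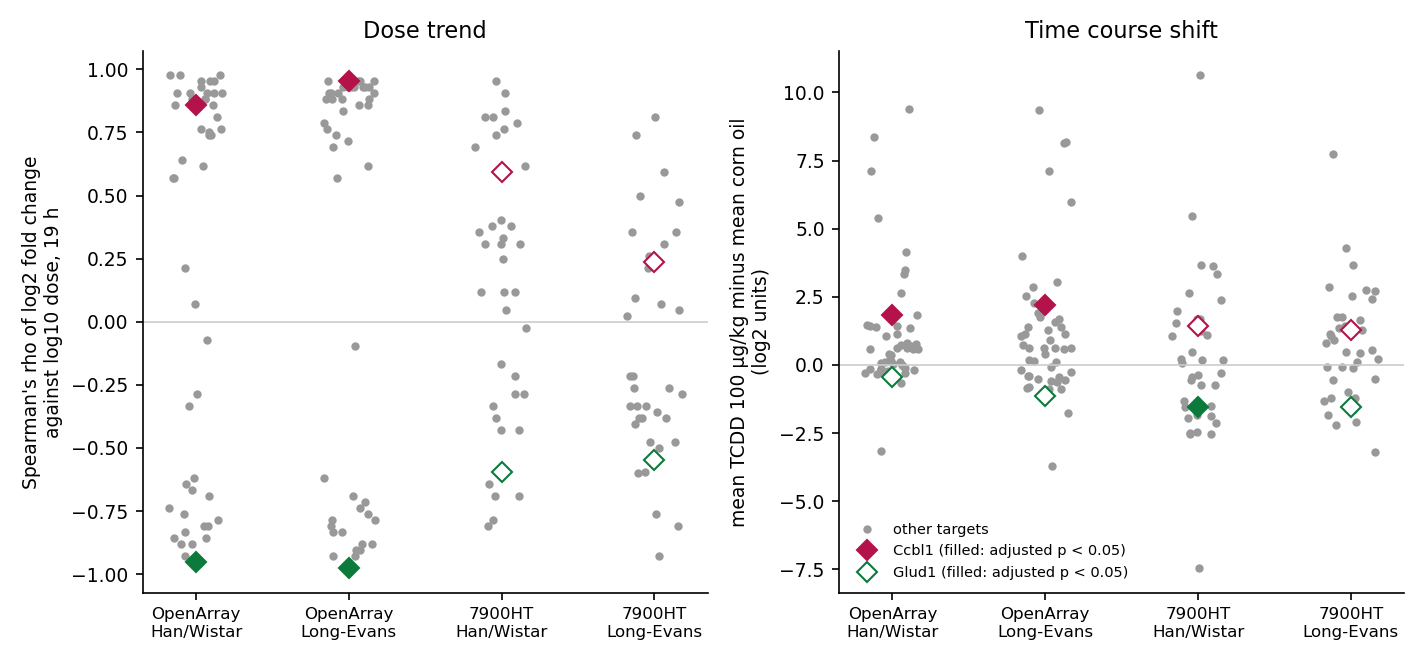
Spearman's rho against dose (left) and the mean TCDD minus corn oil difference over time in log2 units (right) for every target, by platform and strain, with Ccbl1 and Glud1 as diamonds that are filled where the adjusted p is under 0.05 and the other targets as grey dots. In the OpenArray dose arm Glud1 is the lowest of 49 targets in both strains at -0.95 and -0.98.

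The strains are compared because Long-Evans rats are sensitive to TCDD and Han/Wistar rats resistant. On the OpenArray, Glud1 was lower in Long-Evans at 7 of the 7 shared doses, by -0.46 to -0.14 with a median of -0.33. Ccbl1 was higher in Long-Evans at 6 of 7, with differences from -0.05 to 0.59. At 96 h after 100 µg/kg the Long-Evans minus Han/Wistar difference was 1.04 for Ccbl1 and -0.85 for Glud1. The corn oil groups of that time already differed by 0.38 and 0.27, and against them the strain difference was 0.66 for Ccbl1 and -1.12 for Glud1. On the 7900HT Ccbl1 was instead lower in Long-Evans at 6 of 7 shared doses, with differences from -2.88 to 0.85 and a median of -0.84. Glud1 there was lower at 4 of 7, from -2.92 to 0.98. Each strain is scaled to a single corn oil group of its own, so an offset shared by all doses cannot be told apart from an offset of that group.

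Neither strain difference passed its test. A trend of the strain difference with dose, over the 7 shared doses, had a rho of 0.14 for Ccbl1 (adjusted exact p = 0.916) and -0.29 for Glud1 (adjusted exact p = 0.861). Both signs turned when some single doses were left out: Ccbl1 gave -0.03 without 0.01 µg/kg and -0.20 without 100 µg/kg, and Glud1 gave 0.14 without 0.001 µg/kg. Over time, the strain difference under TCDD minus that under corn oil was 0.31 for Ccbl1 (adjusted exact p = 0.528) and -0.62 for Glud1 (exact p = 0.0357, adjusted exact p = 0.292). No target was called in either exact permutation test (0% of 48 and of 49), although 5 and 6 had an unadjusted p under 0.05. The trend test does not respond to a strain difference that is alike at all doses. Over time, the smallest unadjusted p that 84 splits allow is 0.0119, and a target at that limit had an adjusted exact p of 0.292. These tests therefore do not show that the strains are alike. The same strain tests called 0 of 37 and 0 of 39 targets on the 7900HT, with 0 and 8 at an unadjusted p under 0.05. There the rho over dose was -0.32 for Ccbl1 and -0.54 for Glud1 (adjusted exact p = 0.874 for both), and the difference over time was -0.36 (adjusted exact p = 0.672) and 0.21 (adjusted exact p = 0.756). Median centring turned the sign for Ccbl1 over dose (0.25) and for Glud1 over time (-0.71).

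The 7900HT gave both genes a wider scatter. For Ccbl1 in Han/Wistar, the authors' deposited table for that platform listed -0.28, -0.64, -2.58, -0.31, 0.81, 0.58, 0.30 and -0.21 from the lowest to the highest dose. The Long-Evans values of Ccbl1 in the authors' deposited table were -0.80, -1.70, -1.73, -1.15, -2.07, -1.38, 0.49 and -1.03 at 0.001, 0.01, 0.1, 1, 10, 50, 100 and 1000 µg/kg. Only the group at 100 µg/kg was above corn oil in Long-Evans and the other 7 were below it, where corn oil stood at 0, -0.22 and -0.06 in the authors' deposited table. That range is narrow: its SD of 0.11 was the lowest of 39 targets, whose median SD was 0.74. Relative to the median target of its group, Ccbl1 stood at 0.02, 0.20, 0.04 and 0.23 at 1, 10, 50 and 1000 µg/kg. At 0.001, 0.01, 0.1 and 100 µg/kg it stood at -0.83, -0.50, -0.13 and -0.24 on that scale. In Han/Wistar the corn oil groups spanned -0.89 to 0.68 in the authors' deposited table, with 10 µg/kg above them and 0.1 µg/kg below.

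Glud1 on the 7900HT was low at most doses. Its Han/Wistar values in the authors' deposited table were -1.26, -0.73, -2.02, -1.09, -0.88, -2.03, -1.89 and -2.67 from the lowest to the highest dose. For Long-Evans the authors' deposited table gave -0.28, -1.19, -1.93, -2.08, -3.80, -3.56, -1.13 and -3.68 from 0.001 to 1000 µg/kg. All 8 Long-Evans groups lay below corn oil, which spanned -0.17 to 0.68 in the authors' deposited table. In Han/Wistar only 0.1, 100, 1000 and 3000 µg/kg did, because the corn oil group at 1.5 h was itself at -1.68 in the authors' deposited table. The whole panel moved with some of these groups: in Long-Evans the median target stood at -2.27, -1.41 and -1.26 at 10, 50 and 1000 µg/kg, and at 0.73 at 100 µg/kg.

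No dose trend of either gene passed on the 7900HT as deposited. The rho in Han/Wistar was 0.60 for Ccbl1 and -0.60 for Glud1 (adjusted exact p = 0.303 for both), where 2.56% of 39 targets were called. In Long-Evans it was 0.24 for Ccbl1 (adjusted exact p = 0.690) and -0.55 for Glud1 (adjusted exact p = 0.677), where the exact permutation test called 0% of targets and 5 had an unadjusted p under 0.05. The Long-Evans rho of Glud1 ran from -0.89 without 100 µg/kg (adjusted exact p = 0.0763) to -0.32 without 0.001 µg/kg. The sign of Ccbl1 in Long-Evans turned to -0.07 without 100 µg/kg, and in Han/Wistar to -0.43 on centring each group on its mean. With each group centred on its median target, the rho of Glud1 came to -0.93 in Han/Wistar (adjusted exact p = 0.0218) and -0.95 in Long-Evans (adjusted exact p = 0.0148), which passed. Ccbl1 under that centring had 0.21 and 0.74 and did not pass.

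In the time arm on the 7900HT, Ccbl1 in Han/Wistar was at -1.57, 0.15, 1.50, 2.24, 0.58, 2.95, 3.03 and 2.60 from 1.5 to 384 h in the authors' deposited table. The Long-Evans series in the authors' deposited table was 0.20, 0.66, 0.30, 0.49, 3.09 and 2.43 from 3 to 240 h. The late groups, from 96 h on, were the highest in both strains, at 2.43 or more in the authors' deposited table. Set against corn oil of the same time, Ccbl1 in Han/Wistar differed by -0.68, 0.58, 2.48, 3.21 and 1.91 at 1.5, 19, 96, 240 and 384 h. In Long-Evans that difference was 0.49, 3.30 and 2.48 at 19, 96 and 240 h. The mean difference from corn oil was 1.42 in Han/Wistar (adjusted exact p = 0.153) and 1.29 in Long-Evans (adjusted exact p = 0.177), so neither passed over the whole course. Without the 1.5 h TCDD group the Han/Wistar difference was 1.85 and passed (adjusted exact p = 0.0379).

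Glud1 on the 7900HT stood at -2.09, -2.10, -1.22, 0.10, -2.03, -1.23, -2.42 and -1.49 in Han/Wistar from 1.5 to 384 h in the authors' deposited table. In Long-Evans the authors' deposited table listed -1.54, -0.45, -0.79, -1.13, -2.08 and -2.24 from 3 to 240 h. Set against corn oil of the same time, Glud1 in Han/Wistar differed by only -0.41 at 1.5 h, where the median target also differed by -0.41. At 19, 96, 240 and 384 h the Han/Wistar difference was -2.03, -1.72, -2.74 and -2.28. In Long-Evans it was -1.13, -2.76 and -2.08 at 19, 96 and 240 h. The fall of 1.54 on the log2 scale in Han/Wistar passed (adjusted exact p = 0.0466), where 20.5% of targets were called as lower. The difference of -1.54 in Long-Evans did not pass (adjusted exact p = 0.0929), and the exact test called 0% of targets there, with 16 at an unadjusted p under 0.05. The Han/Wistar call was lost without any 1 of 11 of the 13 groups, all but TCDD at 10 h and corn oil at 1.5 h, with adjusted exact p between 0.0585 and 0.0998. On the 7900HT 14 targets had 4 rows of raw values per gene and 25, including both of these, had 2. Centring these sets separately gave Glud1 -0.65 in Han/Wistar (adjusted exact p = 0.141) and Ccbl1 2.31 (adjusted exact p = 0.0182).

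A further measure, Ccbl1 minus Glud1 within a group, cancels any shift that both genes share. It is given as a description, with no test. On the OpenArray it was 0.11, -0.02, 0.09, 1.08, 2.09, 2.35, 2.73 and 2.56 from 0.001 to 3000 µg/kg in Han/Wistar. On the 7900HT it was 0.98, 0.10, -0.56, 0.78, 1.69, 2.60, 2.19 and 2.47 at those doses. At the 5 Han/Wistar doses from 1 µg/kg the platforms differed by at most 0.54 in this gap, against at most 1.71 for Ccbl1 alone and 1.61 for Glud1 alone.

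The Long-Evans gap was 0.53, 0.38, 0.91, 1.26, 2.31, 3.03, 3.27 and 3.35 on the OpenArray, in order of dose. On the 7900HT it was -0.52, -0.51, 0.21, 0.93, 1.73, 2.19, 1.62 and 2.65. From 1 µg/kg the platforms differed by at most 1.65 in the Long-Evans gap, against at most 3.28 for Ccbl1 and 2.70 for Glud1 alone. The corn oil groups ran from -0.71 to 0 on the OpenArray and from -0.90 to 0.79 on the 7900HT, and every 19 h group at 10 µg/kg and above exceeded them on both platforms in both strains. Over the other times after 100 µg/kg the gap was highest at 96 h in Long-Evans on the OpenArray, at 4.62, and at 240 h in Han/Wistar on the 7900HT, at 5.46.

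**Figure D4:**
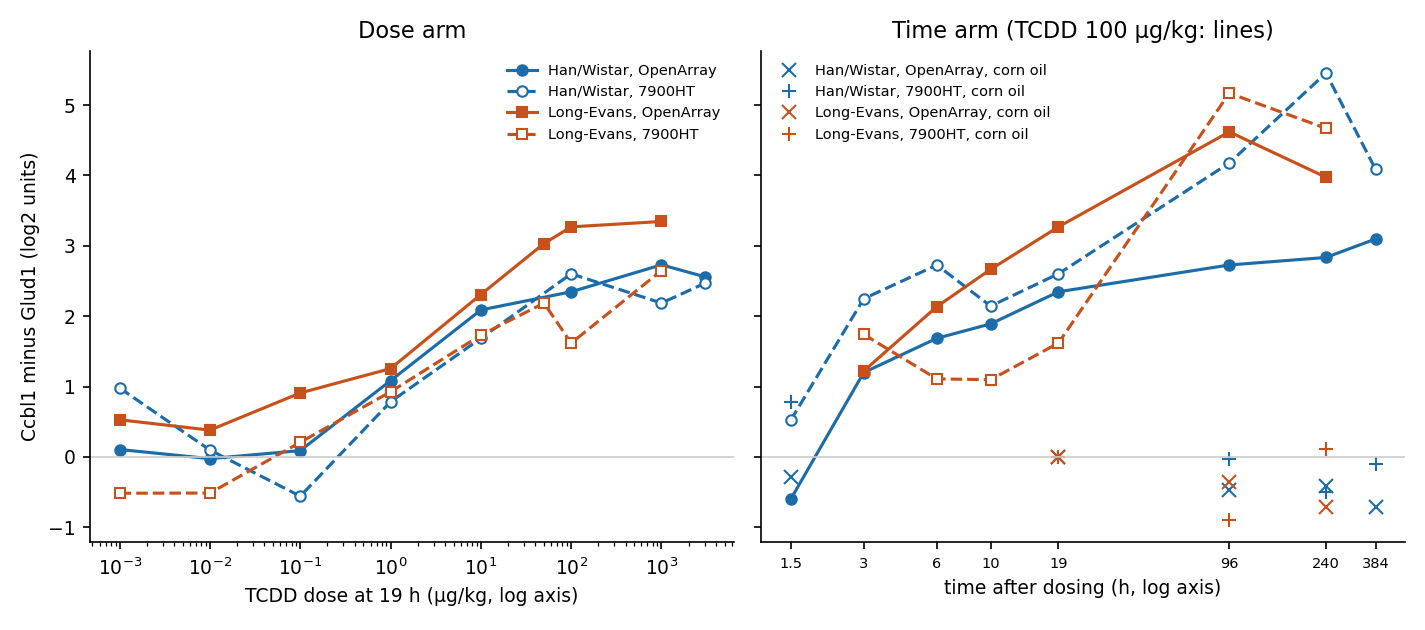
Ccbl1 minus Glud1 in log2 units against dose at 19 h (left) and against time after 100 µg/kg (right), both on log axes, with solid lines for the OpenArray, dashed lines for the 7900HT, and crosses for corn oil groups. The gap at the highest dose of each strain lies between 2.47 and 3.35 on both platforms.

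The OpenArray and 7900HT values of each gene were correlated over TCDD groups at 1 µg/kg and above. For Ccbl1, Spearman's rho was 0.91 over 12 Han/Wistar groups (r 0.80, adjusted permutation p = 0.00190) and 0.83 over 10 Long-Evans groups (r 0.77, adjusted permutation p = 0.0364). Of the 38 shared targets, 10.5% were called over the Han/Wistar groups and 18.4% over the Long-Evans groups, where the median rho was 0.38 and 0.51. Leaving out the 2 groups farthest from the median kept r for Ccbl1 at 0.69 and 0.64. For Glud1, rho was 0.29 in Han/Wistar (r 0.27, adjusted permutation p = 0.534) and 0.60 in Long-Evans (r 0.61, adjusted permutation p = 0.194). The platforms gave Ccbl1 the same sign in 10 of 12 Han/Wistar groups and 6 of 10 Long-Evans groups. Glud1 had the same sign in 10 of 12 and 10 of 10. With the 7900HT row sets centred separately, Glud1 passed in both strains, at 0.87 (adjusted permutation p = 0.00456) and 0.78 (adjusted permutation p = 0.0397), and Ccbl1 in Long-Evans dropped to 0.20 (adjusted permutation p = 0.697).

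**Figure D5:**
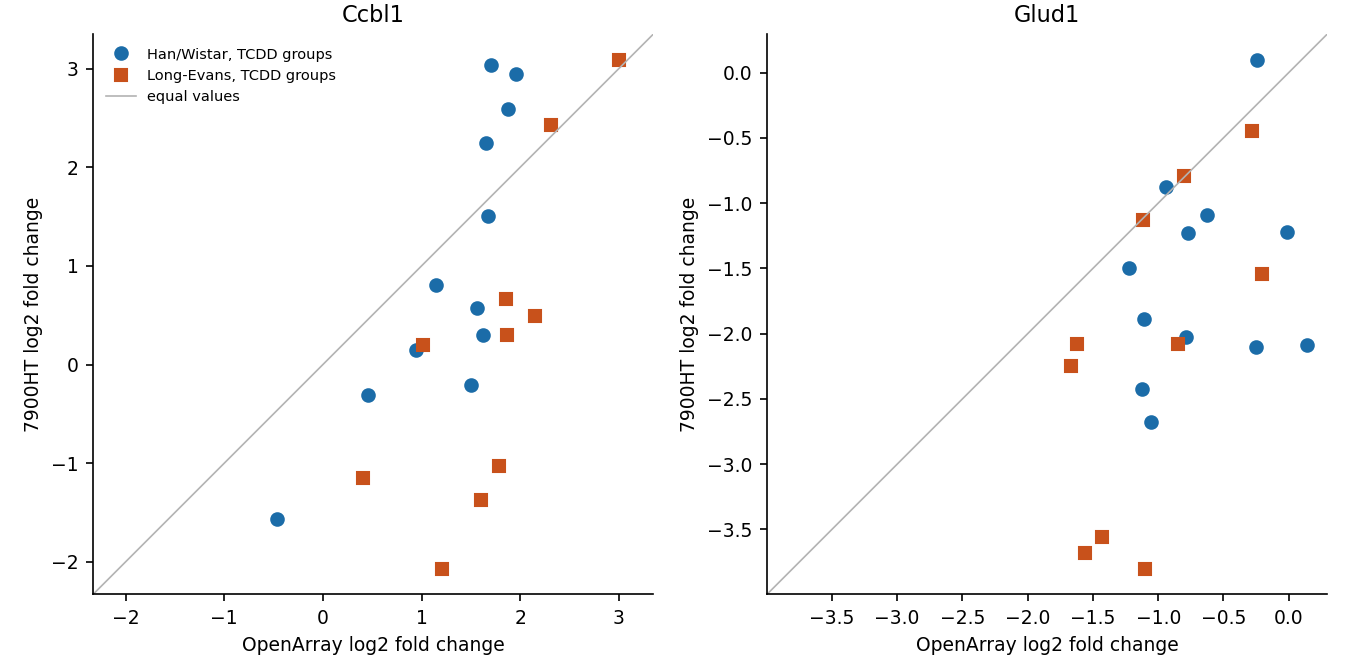
7900HT against OpenArray log2 fold change for Ccbl1 (left) and Glud1 (right) in TCDD groups at 1 µg/kg and above, with a grey line of equal values. Ccbl1 groups order alike on both platforms as deposited (rho 0.91 and 0.83), and Glud1 groups spread down to -3.80 on the 7900HT while none is below -1.67 on the OpenArray. The Ccbl1 sign is the same on both platforms in 6 of 10 Long-Evans groups, and its rho there is 0.20 with the 7900HT row sets centred separately.

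The targets whose OpenArray pattern was most like each gene were named by the mean of Pearson's r in the 2 strains over 19 Han/Wistar and 15 Long-Evans groups, as a description with no p. These groups share a scaling and a reference per strain. For Ccbl1 they were Ube4b, a ubiquitin chain elongation factor (r 0.98 and 0.97), Nqo1, the quinone reductase known as an AHR target (0.97 and 0.96), and Mawbp, now called Pbld (0.93 and 0.95). Nqo1 had larger changes than Ccbl1, with 3.78 in Han/Wistar and 3.47 in Long-Evans 19 h after 100 µg/kg in the authors' deposited table, while Ube4b stood at 1.03 and 1.55.

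For Glud1 the closest were Inmt, an N-methyltransferase of indoleamines (r 0.93 and 0.84), Slco1a1, a hepatic organic anion uptake carrier (0.84 and 0.86), and Ghr, the growth hormone receptor (0.79 and 0.82). Inmt was lower by far, at -4.47 and -3.95 at 100 µg/kg and 19 h in the authors' deposited table, against -0.79 and -1.12 for Glud1. Ccbl1 and Glud1 had r of -0.72 and -0.75 with each other, which placed Glud1 45 of 46 in likeness to Ccbl1. Of 47 symbols of amino acid and kynurenine enzymes looked up, older names included, only these 2 were on the panels, so no neighbouring step of either pathway was measured.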

How the data were processed

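Liver RNA was reverse transcribed and measured by real-time PCR, per the labels' protocols. The authors deposited 1 value per gene and group, taken here as log2 fold change against corn oil at 19 h because it is 0 there. No header states the log base. Not given in the sources used here are the reference genes and how animals were averaged. R 2.12.2 is named in the submitters' processing notes. The 304 columns of raw cycle values carry animal codes that match no sample label and were not used. Every test therefore took groups, assigned from the labels, as its units. The p-values compare a result with reorderings or relabellings of the group values and do not measure the spread between animals.

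Tests were exact permutation tests fitted on all targets of a platform and strain, two-sided, with Benjamini-Hochberg adjustment at 0.05. Platform correlations used 100000 permutations. The procedures were tested on simulated data. Genes named were Ccbl1, Glud1 and the 3 targets most like each. Members, lists and tests were chosen with earlier results of these data known. Ccbl1 was matched to Kyat1 and promoters were taken from RefSeq, GRCr8, whereas the assays' own build is not given. Alternatives were other centrings, Pearson's r, times with their own corn oil, and leaving out single groups. The software was Python 3.11.15 with scipy 1.17.1, pandas 2.3.3, numpy 2.4.6 and, for plots, matplotlib 3.10.9.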

Additional observations from a re-analysis of the deposited data

How the results depend on the processing

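Of the alternatives other than leaving out groups, 54 values of Ccbl1 and Glud1 kept direction and call, 10 gained a call, 5 lost one and 3 turned sign. On the OpenArray, Glud1 over time in Han/Wistar gained a call on median (-0.89) and mean (-1.47) centring, as it did in Long-Evans on mean centring (-2.14), where targets called went from 16 to 29. Ccbl1 lost calls in Long-Evans for dose on mean centring (rho 0.76) and for time with only times that have their own corn oil (2.66), where 0 targets were called. That time setting leaves 3 TCDD and 3 corn oil groups. The smallest unadjusted p its exact test allows is 0.1, the value for Ccbl1, so no target could be called. Median centring called 1 target for the strain difference over dose. On the 7900HT in Han/Wistar, the dose trend of Glud1 passed on median and mean centring (-0.93 for both), that of Ccbl1 turned to -0.43 on mean centring, and targets called were 6, 7 and, by Pearson's r, 0. Over time there, separate row sets gave 2.31 for Ccbl1 and -0.65 for Glud1, and times with their own corn oil gave -1.84 for Glud1 with 7 targets called. In Long-Evans the Glud1 dose trend passed on median centring and with row sets (-0.95 for both), with 3 and 7 targets called, and median or mean centring called 10 targets over time. Median centring turned the 7900HT strain differences of Ccbl1 over dose (0.25) and Glud1 over time (-0.71). Between platforms, Pearson's r called 7 targets in Han/Wistar. Row sets gave Glud1 0.87 and 0.78 and Ccbl1 in Long-Evans 0.20, with 11 targets called. Apart from that limit of the Long-Evans time setting, the cause of these changes was not tested.

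Without single groups on the OpenArray, the Ccbl1 trend in Han/Wistar ranged from 0.79 to 0.89 (7 to 28 targets called), the Long-Evans count from 24 to 42, Ccbl1 over time in Long-Evans from 2.01 to 2.41 (0 to 21 called), and the strain trends from -0.20 to 0.43 for Ccbl1 and from -0.60 to 0.14 for Glud1. On the 7900HT the Han/Wistar dose count was 0 throughout, the time shift ranged from 1.19 to 1.85 for Ccbl1 and from -1.96 to -1.35 for Glud1 (4 to 16 called), and the Long-Evans dose trend from -0.071 to 0.64 for Ccbl1 and from -0.89 to -0.32 for Glud1. No paired analysis was possible because the tables hold 1 value per group and carry no replicate number. For the same reason single animals could not be left out, no animal error is known, and depth or cycle thresholds behind a value are unknown.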
